A study of Mus musculus with 12 samples.

Results

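Schlafen and SLAM family genes were examined in BCR-ABL1-transformed mouse pre-B cells, which model acute lymphoblastic leukemia of the B lineage. The set holds 10 of the 12151 genes with a value, namely Slfn1, Slfn2, Slfn3, Slfn5, Slfn8 and Slfn9 of the Schlafen family and Slamf6, Slamf7, Cd48 and Ly9 of the SLAM family. It was drawn up because Slfn2 and Slamf7 were among the lowest genes in cells labelled as lacking Ikzf1 and Ikzf3, so the KO against WT differences of these 10 genes are given as descriptions without a test. The 5 other members with a value, Slfn10-ps, Slamf1, Cd244, Cd84 and Slamf9, were left out of that set and were tested in every comparison. Which members were left out depends on the same choice, made with earlier results of these data known. All 10 chosen genes and all 5 others were kept, and no filter on low values removed any of them in the main fit. An alternative setting that kept only genes with a mean above 6.66 left out Slfn1 (mean 3.60).

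Polyadenylated RNA was sequenced in 12 libraries, 3 for each of 4 groups. All cells came from bone marrow of mice aged 6 to 12 weeks, were transformed with BCR-ABL1 and carried 1 Ctnnb1 allele whose exon 3 is flanked by loxP sites (Ctnnb1 Ex3fl/+), so that Cre produces a stabilized β-catenin. Cells had been electroporated with Cas9 and either nontargeting guides (sgNTC, here WT) or guides against Ikzf1 and Ikzf3 (here KO), and single cells were expanded into lines. A GFP vector was then introduced, either for ERT2, the ligand-binding domain that responds to 4-OHT, or for Cre-ERT2. The WT groups are thus ERT2 WT and Cre-ERT2 WT, and the KO groups ERT2 KO and Cre-ERT2 KO. The protocol mentions day 1 of 4-OHT treatment only in wording for ChIP-seq, so the time is not established for these RNA libraries. The labels do not say which single-cell lines gave which libraries or whether replicates are separate cultures, so P values measure only the spread between these samples, and a difference between lines cannot be told apart from an effect of the guides. Expression of Cre cannot be told apart from stabilization of β-catenin either, and is called the β-catenin effect below.

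Schlafen genes form a cluster that differs in gene number between rodents and humans, and many members respond to interferon. Slfn2 keeps T cells and monocytes quiescent, and its protein protects transfer RNA from stress-induced cleavage. SLAM family receptors are immunoglobulin-like surface proteins of blood cells, most of which bind the same receptor on a neighboring cell and signal through the adaptor SAP or through inhibitory phosphatases. CD48 is the exception, a lipid-anchored protein without a cytoplasmic tail that serves as the ligand of CD244 (2B4). Ikaros (Ikzf1) and Aiolos (Ikzf3) are zinc finger factors that repress and activate lymphoid genes through sites with a GGGAA core.

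The Schlafen genes lie on chromosome 11 between 82951349 and 83215154, and the SLAM genes on chromosome 1 between 171559193 and 171953170, with Slamf9 farther on at 172475358 to 172478575 (mm10/GRCm38, GENCODE vM21). Promoter windows of 250 bases before and 50 after the annotated start were available from RefSeq (GRCm38.p6) for 13 of the 15 genes, all but Ly9 and Slfn10-ps. They were searched on both strands for the Ikaros core GGGAA (in 62.7% of all 32851 windows), the TCF/LEF letters CTTTGA or CTTTGT (31.2%), the interferon-stimulated response element, searched as a pair of TTTC with 2 bases between them (3.44%), and the STAT element TTCNNNGAA (8.30%), which is the same on both strands. The windows of Slfn2, Slamf7 and Cd244 are shown because these genes differed most between KO and WT among those with a window. GGGAA is in capitals in Slfn2 and Cd244, and the TCF/LEF letters are in capitals in Slfn2 and Slamf7 (read on the other strand as TTCCC and ACAAAG). The Slfn2 window is chr11:83064862-83065161 on the plus strand, the Slamf7 window chr1:171648950-171649249 on the minus strand and the Cd244 window chr1:171558943-171559242 on the plus strand.
Slfn2: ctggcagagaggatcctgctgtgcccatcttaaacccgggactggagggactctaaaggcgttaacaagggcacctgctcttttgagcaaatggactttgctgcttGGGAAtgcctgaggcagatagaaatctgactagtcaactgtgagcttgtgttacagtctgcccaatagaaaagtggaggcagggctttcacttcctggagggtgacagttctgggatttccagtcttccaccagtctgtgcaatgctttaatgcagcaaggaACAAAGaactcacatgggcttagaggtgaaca
Slamf7: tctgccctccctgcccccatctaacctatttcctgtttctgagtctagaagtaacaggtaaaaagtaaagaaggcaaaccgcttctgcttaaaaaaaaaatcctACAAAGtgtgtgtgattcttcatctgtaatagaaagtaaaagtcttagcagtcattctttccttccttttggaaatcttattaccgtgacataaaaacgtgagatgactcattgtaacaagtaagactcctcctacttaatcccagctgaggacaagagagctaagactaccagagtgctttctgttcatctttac
Cd244: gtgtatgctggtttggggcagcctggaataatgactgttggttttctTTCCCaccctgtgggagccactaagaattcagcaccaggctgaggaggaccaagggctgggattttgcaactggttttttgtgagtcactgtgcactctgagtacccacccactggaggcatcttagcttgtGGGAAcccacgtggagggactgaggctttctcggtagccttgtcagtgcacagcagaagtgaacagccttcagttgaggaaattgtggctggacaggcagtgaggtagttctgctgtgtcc

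Slfn2 held 1 GGGAA match and 1 TCF/LEF match, Slamf7 held no GGGAA match and 1 TCF/LEF match, and Cd244 held 2 GGGAA matches and no TCF/LEF match. Of the other windows, Slamf1 held 3 GGGAA matches, Slfn9 held 2, Slfn3, Slfn5 and Slamf9 held 1 each, and Slfn1, Slamf6, Cd48 and Cd84 held none. Slfn8 had a pair of windows, with 2 and 1 GGGAA matches. The TCF/LEF letters were not particular to Slfn2 and Slamf7. Slfn5, Cd48, Slamf9 and 1 window of the Slfn8 pair also held 1 match each. The interferon element occurred in Slfn5, Slfn8 and Slfn9 and in none of the 7 SLAM windows. No window of the family held the STAT element. A match is a description of letters and not of binding. The Slfn5 window (chr11:82951852-82952151, plus strand) and the Slfn9 window (chr11:82991781-82992080, minus strand) are shown with the interferon element in capitals, since these neighbors share it and differed in the measurements below.
Slfn5: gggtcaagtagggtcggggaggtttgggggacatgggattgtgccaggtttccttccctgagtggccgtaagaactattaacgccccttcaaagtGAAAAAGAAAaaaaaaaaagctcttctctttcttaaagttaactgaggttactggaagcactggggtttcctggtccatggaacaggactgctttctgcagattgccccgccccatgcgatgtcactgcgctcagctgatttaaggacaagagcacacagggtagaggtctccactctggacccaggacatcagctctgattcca
Slfn9: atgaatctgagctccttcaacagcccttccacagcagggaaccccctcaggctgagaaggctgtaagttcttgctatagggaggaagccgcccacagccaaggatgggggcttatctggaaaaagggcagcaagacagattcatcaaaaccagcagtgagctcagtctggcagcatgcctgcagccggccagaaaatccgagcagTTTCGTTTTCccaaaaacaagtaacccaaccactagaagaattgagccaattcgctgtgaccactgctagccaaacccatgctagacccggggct

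The values, normalized by the authors, are in log2 units, so that a difference of 1 is a 2-fold change of the deposited value. The transformation used is not stated, so fold changes, unlogged sums and levels per kb below describe the deposited values. The median gene of each library lay between 9.06 and 9.11, no libraries were identical, and the depth of sequencing is unknown because the table holds no counts. As a check of the labels, Ikzf1 lay between 13.66 and 13.75 in the 6 libraries labelled WT and between 14.56 and 14.76 in the 6 labelled KO, so its mRNA was not lower there (ERT2 libraries: 1.01 higher, SE 0.018, limma adjusted p 1.93e-13). Ikzf3 fell by 0.65 in the ERT2 libraries labelled KO (SE 0.043, limma adjusted p 5.23e-08). These values cannot show whether the protein was lost, and KO below means the libraries so labelled. All 15 pre-B cell markers had a value, and their summed unlogged level was 128593 to 131980 in WT and 94847 to 98544 in KO libraries. This sum is weighted to abundant genes such as Cd79a, which averaged 15.10 in ERT2 WT and 14.31 in ERT2 KO. The members differed in direction: in ERT2 libraries 10 were called lower in KO and 3 higher (limma adjusted p under 0.05), against 29.3% and 29.8% of all genes. Rag1 averaged 11.47 in ERT2 WT and 11.80 in ERT2 KO, and Pax5 13.77 and 13.74. Of the defining markers of T cells (Cd3e, Cd3d, Cd3g) and of red cells (the globins Hba-a1, Hba-a2, Hbb-bs and Hbb-bt, with Gata1), none has a row in the table used. In bulk RNA fewer cells expressing a gene and less RNA per cell cannot be told apart.

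Slfn2 was the Schlafen gene with the largest difference. Its values were 12.79, 12.77 and 12.78 in ERT2 WT, 12.52, 12.47 and 12.48 in Cre-ERT2 WT, 10.05, 9.88 and 9.86 in ERT2 KO, and 9.88, 9.91 and 9.76 in Cre-ERT2 KO libraries. Every KO value lay far below every WT value with the same vector, with gaps of 2.72 and 2.56 between the groups. Without stabilized β-catenin the KO minus WT difference was -2.85 (SE 0.048), which is 7.22-fold lower, and Slfn2 had rank 7 from the lowest among 12151 genes. With stabilized β-catenin the difference was -2.64 (SE 0.048), or 6.25-fold, and the rank 8.

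Slamf7, which encodes the self-binding receptor known as CS1 or CRACC on natural killer and plasma cells, followed on the SLAM side. It measured 10.03, 9.97 and 9.96 in ERT2 WT, 10.61, 10.62 and 10.62 in Cre-ERT2 WT, 7.83, 8.08 and 8.05 in ERT2 KO, and 8.59, 8.66 and 8.61 in Cre-ERT2 KO libraries. The 4 groups did not overlap and were ordered Cre-ERT2 WT, ERT2 WT, Cre-ERT2 KO and ERT2 KO from high to low. The KO minus WT difference was -1.99 (SE 0.053) with either vector, which is 3.98-fold lower in ERT2 libraries. Its ranks from the lowest were 12 and 15. Other cell type lists moved as well. The 4 of 6 plasma cell markers with a row (Sdc1, Xbp1, Irf4 and Prdm1) had a summed unlogged level of 6726 to 8008 in WT and 4683 to 6062 in KO libraries, and the defining marker Jchain has no row. The 1 of 11 T cell markers with a row, Lck, lay at 449 to 849 in WT and 169 to 221 in KO libraries. The 3 of 8 myeloid markers with a row (Lyz2, Itgam and Fcgr3) summed to 231 to 241 in WT and 385 to 468 in KO libraries. Within these lists the members differed in direction. In ERT2 libraries Irf4 fell by 0.77 (limma adjusted p 7.94e-11) and Xbp1 by 0.27 (adjusted p 7.88e-06), while Sdc1 rose by 0.19 (adjusted p 7.94e-05) and Prdm1 averaged 6.01 in WT and 5.98 in KO. Lyz2 rose by 0.99 (limma adjusted p 9.36e-11), whereas Fcgr3 fell by 0.36 (adjusted p 4.99e-09) and Itgam by 0.15 (adjusted p 1.79e-05). The part of such cells in these differences was not tested.

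**Figure D1:**
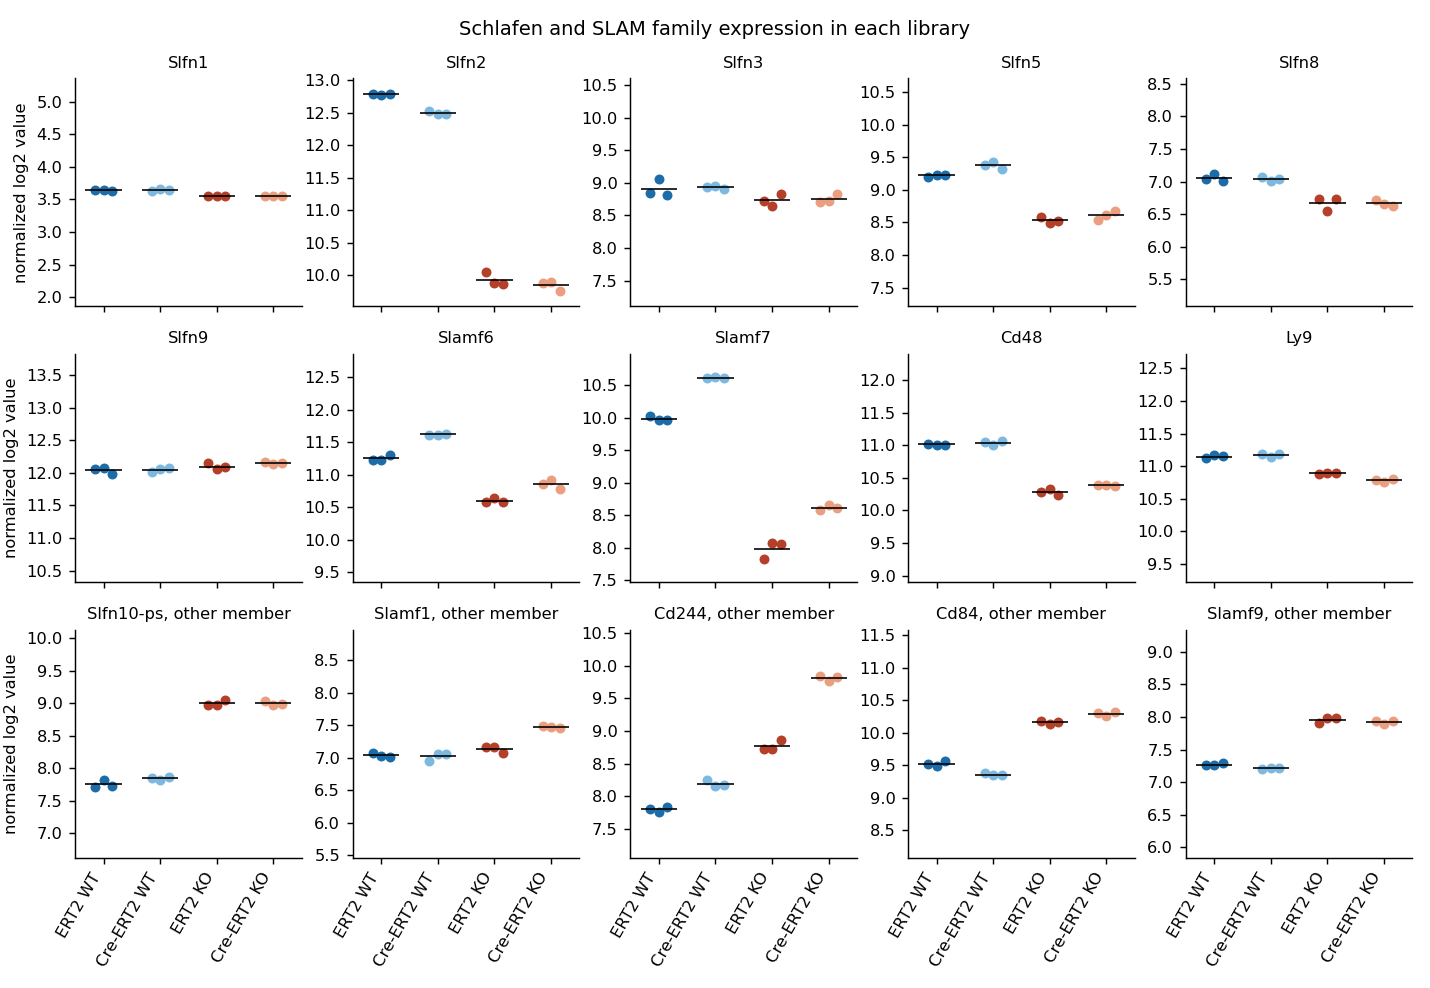
Normalized log2 value of each Schlafen and SLAM gene in each of the 12 libraries, with groups along the horizontal axis, 1 point per library, a black line at the mean of 3 and the same span of 3.5 log2 units in every panel. Slfn2 and Slamf7 drop furthest from WT to KO, while the 5 other members in the bottom row sit higher in KO, Slamf1 by the least.

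The other Schlafen genes of the set showed smaller differences. Slfn5, an interferon-induced member with a helicase-like carboxy terminus, ranged from 9.20 to 9.43 in WT and from 8.49 to 8.67 in KO libraries, with no overlap. Its KO minus WT difference was -0.69 (SE 0.039) in ERT2 and -0.77 (SE 0.039) in Cre-ERT2 libraries. Slfn8, of the same long subgroup, had a mean of 7.06 ± 0.059 (SD, n = 3) in ERT2 WT libraries and, without overlap, of 6.67 ± 0.11 (SD, n = 3) in ERT2 KO libraries, and the difference was -0.38 (SE 0.049) there and -0.37 with Cre-ERT2. For Slfn3 the ERT2 groups overlapped, with 8.85, 9.06 and 8.82 in WT and 8.72, 8.65 and 8.82 in KO, and the difference was -0.18 (SE 0.062). Slfn9, another long member, was the only chosen gene with a higher mean in KO, by 0.056 (SE 0.030) in ERT2 libraries, where the groups overlapped, and by 0.11 (SE 0.030) in Cre-ERT2 libraries, where they did not. Slfn1, the founding member of the family, sat near the low end of the table, with 3.63 to 3.67 in WT and 3.55 in all 6 KO libraries. The KO values of Slfn1 were nearly identical (SD 8.03e-05 in ERT2 and 0.000112 in Cre-ERT2 libraries, against 0.0054 and 0.019 in WT), and its differences are given on the log2 scale only.

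Among the SLAM genes of the set, Cd48 lay at 11.01 ± 0.0096 (SD, n = 3) in ERT2 WT libraries, against 10.28 ± 0.049 (SD, n = 3) in ERT2 KO libraries, with KO minus WT differences of -0.73 there and -0.66 in Cre-ERT2 libraries (SE 0.028). Slamf6, the self-binding receptor Ly108, measured 11.23, 11.23 and 11.31 in ERT2 WT and 10.59, 10.65 and 10.58 in ERT2 KO libraries, a difference of -0.65 (SE 0.037). With Cre-ERT2 the values were 11.61, 11.62 and 11.63 against 10.86, 10.93 and 10.77, a difference of -0.76 (SE 0.037). Ly9 (CD229), also self-binding, had the smallest difference of the 4, at -0.26 (SE 0.023) in ERT2 and -0.39 (SE 0.023) in Cre-ERT2 libraries. None of these groups overlapped.

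With either vector the KO mean was lower for 9 of the 10 genes, all but Slfn9. Groups did not overlap, with KO lower, in 8 of the 10 with ERT2 and 9 of the 10 with Cre-ERT2, against 32.1% and 30.7% of all genes. The median difference of the 10 was -0.52 with either vector, and that of all genes 0.0016. The set was chosen on this contrast, so these counts are no evidence of a direction. For the tests of other genes below, 59.0% of all genes were called in ERT2 libraries, 29.8% higher and 29.3% lower in KO. Once each library was centered on its median, 23.6% were called higher and 39.1% lower. With Cre-ERT2, 58.9% were called, 30.4% higher and 28.6% lower (24.5% and 39.4% centered).

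**Figure D2:**
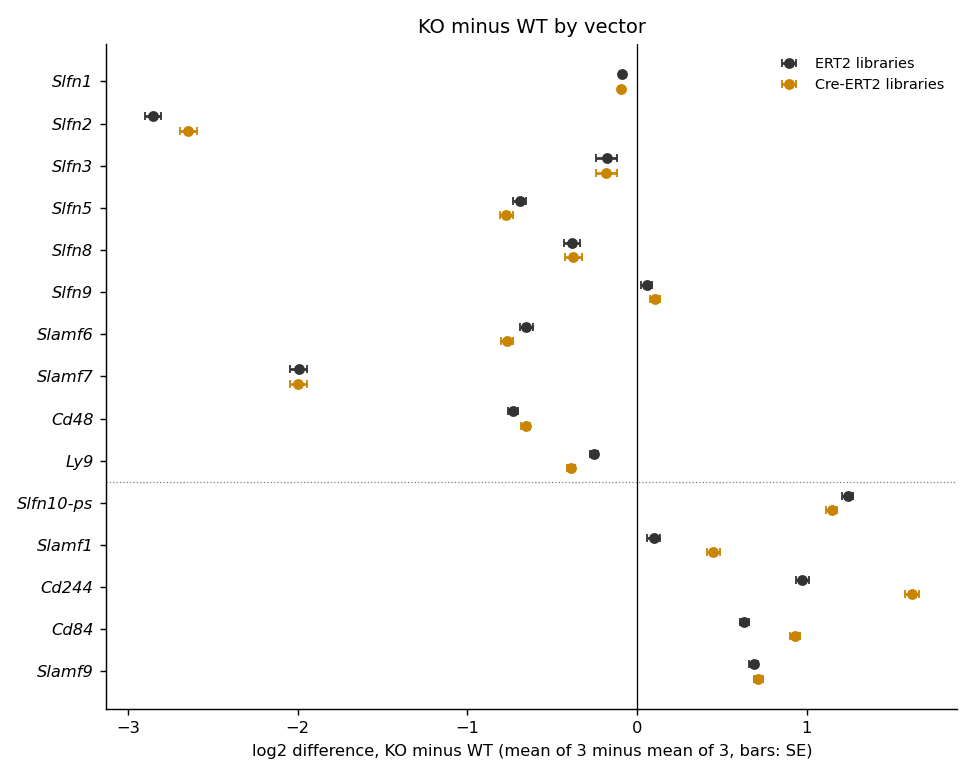
Difference of the means of 3 KO and 3 WT libraries on the log2 scale (horizontal axis) for each gene, in ERT2 and in Cre-ERT2 libraries, with bars for the SE of the linear model. Above the dotted line are the 10 chosen genes, of which Slfn2 lies at -2.85 and -2.64 and Slamf7 at -1.99, and below it the 5 other members, all to the right of 0.

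The members outside the set rose in KO. Slfn10-ps, a transcribed pseudogene between Slfn8 and Slfn2, measured 7.71, 7.82 and 7.73 in ERT2 WT and 8.97, 8.98 and 9.05 in ERT2 KO libraries, with a gap of 1.15 between the groups. The rise was 1.24 (SE 0.034, limma adjusted p 8.04e-12), and with Cre-ERT2 it was 1.15 (limma adjusted p 1.66e-11). Cd244, the receptor for CD48, rose by 0.98 (SE 0.041, limma adjusted p 5.16e-10) and, with Cre-ERT2, by 1.62 (SE 0.041, limma adjusted p 3.66e-12), or 3.07-fold. So the ligand Cd48 was lower in the same libraries in which its receptor was higher.

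Slamf9, a short receptor without the usual signaling motifs, and Cd84, a self-binding receptor, followed. Slamf9 rose by 0.69 and 0.72 (SE 0.028, limma adjusted p 3.28e-10 and 2.12e-10) in ERT2 and Cre-ERT2 libraries, and Cd84 by 0.63 and 0.93 (SE 0.027, limma adjusted p 6.00e-10 and 1.36e-11). Slamf1 (CD150) rose by 0.45 with Cre-ERT2 (limma adjusted p 3.33e-07). In ERT2 libraries it measured 7.07, 7.02 and 7.01 in WT and 7.17, 7.16 and 7.07 in KO, a difference of 0.099 (limma adjusted p 0.0352) that was no longer called under median centering (0.067, adjusted p 0.141) or quantile normalization (0.016, adjusted p 0.725), or without ERT2 WT replicate 2 or 3 or ERT2 KO replicate 1 or 2 (adjusted p 0.0875 to 0.118). All 5 members were thus called higher with either vector, against 29.8% and 30.4% of all genes. They are the members left over from a set drawn up with KO against WT results known, so this count is not independent of that choice. For each of them except Slamf1 in ERT2 libraries the groups did not overlap and the exact 2-sided permutation test gave 0.1, the smallest p that 3 against 3 libraries allow. The natural killer cell gene Nkg7 was also higher in KO, by 2.03 (limma adjusted p 2.38e-14) and 1.90, and the summed unlogged level of the 2 of 7 natural killer markers with a row was 102 to 103 in WT and 360 to 415 in KO libraries. Klrb1c, the other of the 2, averaged 2.40 to 2.42 in the 4 groups, and the defining marker Ncr1 has no row in the table used. The part of such cells in the result was not tested.

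Not every family value can be taken as separate. Of the distinct 31-base words in GENCODE vM21 transcripts, 32.4% in Slfn10-ps, 30.0% in Slfn3, 26.8% in Slfn8, 23.6% in Slfn9 and 10.3% in Slfn2 occur in another gene too, against 4.92% in Slfn5 and 1.96% in Slfn1. Slfn10-ps shares most with Slfn9 (23.7%), which showed little change, and Slfn2 most with Slfn4 (6.98%), which has no row. How reads were divided between these copies is not known, so values of Slfn3, Slfn8, Slfn9 and Slfn10-ps are uncertain. The same limit holds for Slfn2, with its smaller share of such words. SLAM genes shared few words (at most 2.92%, in Slamf1), and Slamf7, Cd48, Ly9, Cd244 and Slamf9 shared none. Ly9 lies wholly within the span of Cd244 on the opposite strand. The library kit keeps strand, but the setting used for counting is not given in the sources used here, so reads of Ly9 and Cd244 cannot be told apart with certainty.

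Per kb of annotated exon, Slfn2 had the highest level of the family in ERT2 WT cells, at 12.05 ± 0.0093 (SD, n = 3) on the log2 scale. Cd48 followed at 10.76 ± 0.0096, then Slfn9 at 9.46 ± 0.052 and Ly9 at 9.42 ± 0.024, and these last levels overlapped between libraries. Slamf6 (7.82 ± 0.044) and Slamf7 (7.79 ± 0.038) overlapped too. Slfn3 was at 7.14, Slamf9 and Cd84 at 6.88, Slfn5 at 6.56, Slfn10-ps at 5.90, Cd244 at 5.51, Slfn8 at 5.02, Slamf1 at 4.41 and Slfn1 at 2.74. In ERT2 KO cells Cd48 came first at 10.03 ± 0.049, followed by Slfn9 at 9.52 ± 0.046, Slfn2 at 9.20 ± 0.105 and Ly9 at 9.17 ± 0.0070, of which the last 2 overlapped. Slamf7, just behind Slamf6 in ERT2 WT cells, stood at 5.79 ± 0.135 in ERT2 KO cells, below Cd244 (6.49 ± 0.079). Even in KO cells the mean length-adjusted level of Slfn2 came behind those of Cd48 and Slfn9 alone.

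**Figure D3:**
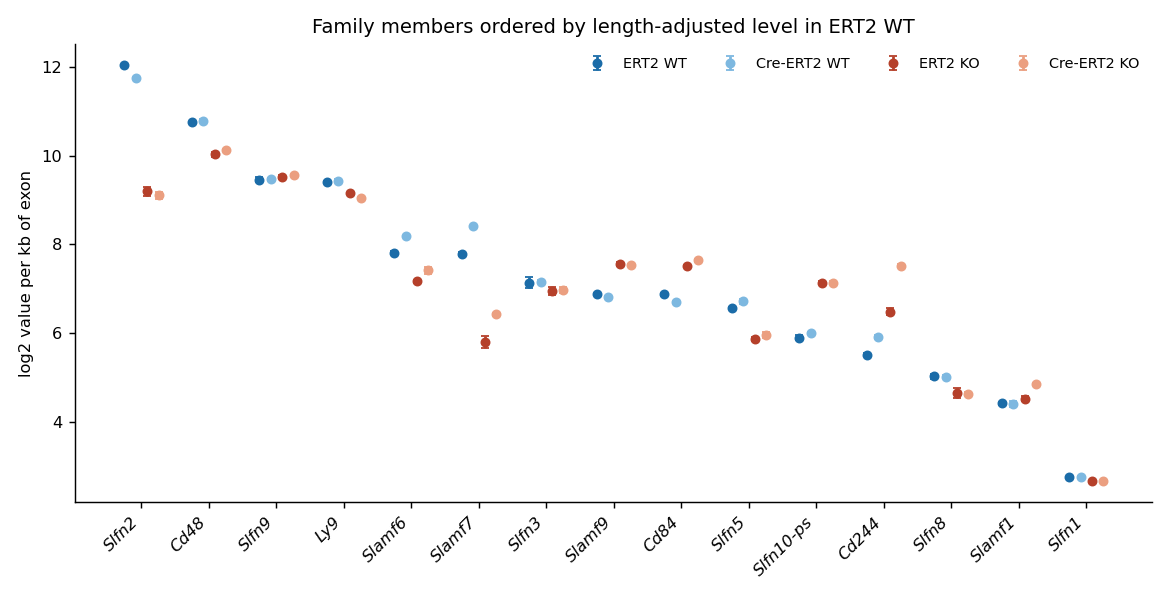
Length-adjusted level (log2 value minus log2 of exon length in kb, mean of 3 libraries with SD) of the 15 genes in each group, ordered by the level in ERT2 WT cells. Slfn2 leads at 12.05 in ERT2 WT and lies at 9.20 in ERT2 KO, while Slfn9 stays between 9.46 and 9.58.

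The genes around the clusters were compared with their family members. Of 15 other genes within 500 kb of the Schlafen genes, 6 rose and 4 fell in ERT2 KO cells, with a median difference of 0.042, and of 32 around the SLAM genes 13 rose and 5 fell, with a median of 0.039. Over all genes 29.8% were called higher and 29.3% lower in this comparison. The largest called differences near the Schlafen genes were Rffl (0.70, limma adjusted p 2.57e-10), AI662270 (-0.37, adjusted p 2.27e-08) and Gm11425 (0.30, adjusted p 2.50e-08). Near the SLAM genes they were Vangl2 (0.62, limma adjusted p 2.14e-05), RP23-77A8.2 (-0.55, adjusted p 2.62e-08) and Pea15a (0.42, adjusted p 1.18e-09). Family genes with lower and higher means in KO stood side by side on both chromosomes. From Slfn5 over Slfn9, Slfn8, Slfn10-ps, Slfn2 and Slfn1 to Slfn3, the differences were -0.69, 0.056, -0.38, 1.24, -2.85, -0.090 and -0.18. From Cd244 over Ly9, Slamf7, Cd48, Slamf1 and Cd84 to Slamf6 they were 0.98, -0.26, -1.99, -0.73, 0.099, 0.63 and -0.65.

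**Figure D4:**
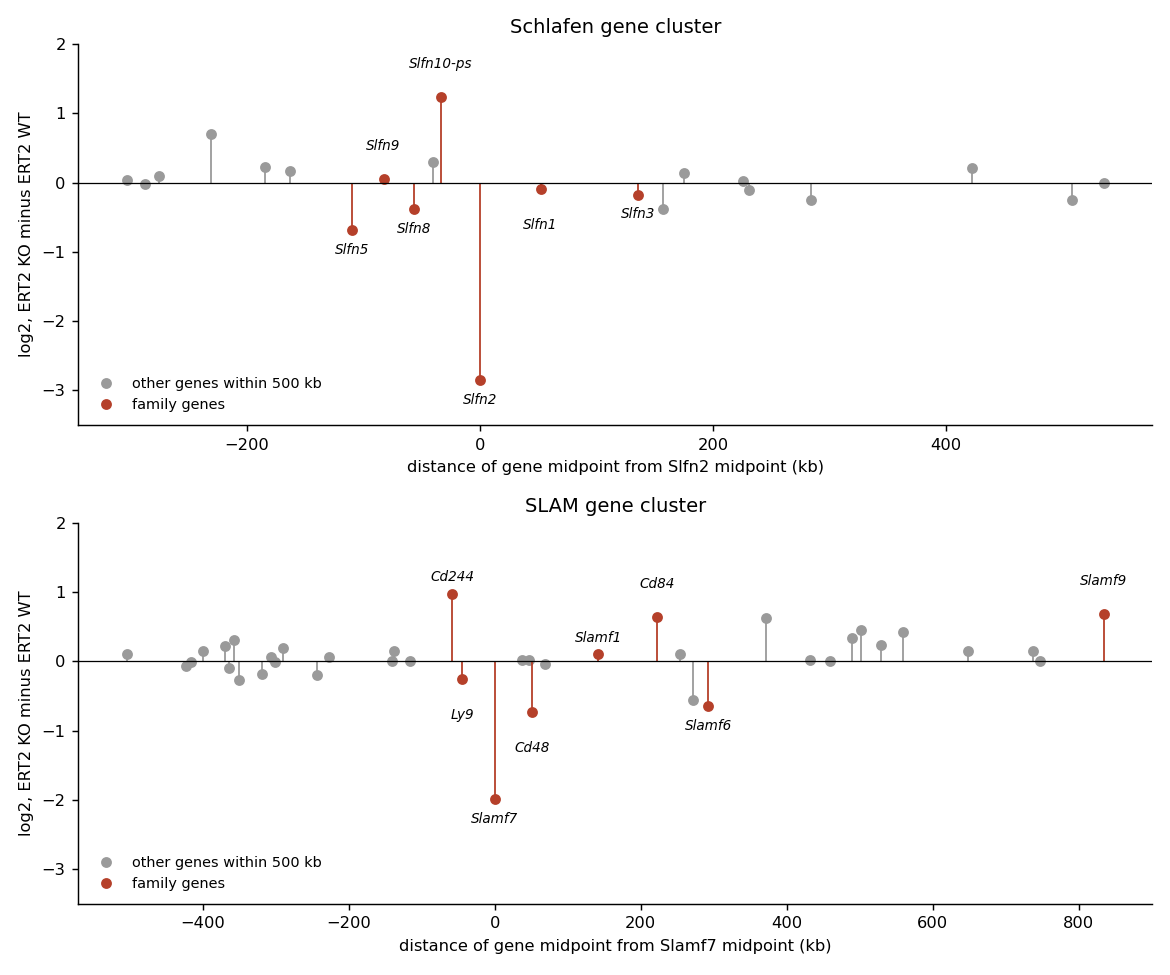
Difference between ERT2 KO and ERT2 WT means (log2, vertical axis) against the distance of each gene's midpoint from that of Slfn2 (top) or Slamf7 (bottom) in kb, for family genes and other genes within 500 kb of the chosen ones. Differences below -1 appear at Slfn2 and Slamf7 only. Slfn10-ps, with a positive difference, stands beside Slfn2. Cd244, also positive, lies near Slamf7, with the midpoint of Ly9 (-0.26) between them.

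The next comparison asked how these genes respond to stabilized β-catenin, a contrast that was not used in their choice. It uses the same libraries as the KO against WT comparisons, however. Its tests and the interaction below are therefore not independent of that choice. In WT cells 4 of the 10 chosen genes were called, 3 up and 1 down with Cre-ERT2, where 11.9% of all genes were called, 5.93% higher and 5.95% lower. Slamf7 rose by 0.63 (SE 0.053, limma adjusted p 6.92e-06), a 1.55-fold change, and had rank 23 from the highest of 12151 genes. Slamf6 rose by 0.36 (SE 0.037, limma adjusted p 3.78e-05). Slfn5 rose by 0.16 (limma adjusted p 0.0196), a call lost without ERT2 WT replicate 1 or Cre-ERT2 WT replicate 1 or 2 (adjusted p 0.0561 to 0.0840). Slfn2 fell by 0.29 (SE 0.048, limma adjusted p 0.00153), 1.23-fold lower. For each of these 4 genes the groups did not overlap and the exact permutation p was 0.1. Cd48 (0.029), Ly9 (0.022), Slfn3 (0.023), Slfn9 (0.0087), Slfn1 (0.0052) and Slfn8 (-0.014) were not called, with limma adjusted p from 0.584 to 0.913. Outside the set, Cd244 rose by 0.40 (limma adjusted p 4.47e-05) and Cd84 fell by 0.17 (limma adjusted p 0.00138).

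In KO cells 4 of the 10 were called again, 3 up and 1 down, against 12.6% of all genes (7.27% higher and 5.33% lower), and all 4 belonged to the SLAM family. Slamf7 rose by 0.63 (SE 0.053, limma adjusted p 5.09e-06), with rank 34 from the highest, and Slamf6 by 0.25 (SE 0.037, limma adjusted p 0.000593). Cd48 rose by 0.10 (limma adjusted p 0.0292) and Ly9 fell by 0.11 (SE 0.023, limma adjusted p 0.00748). The call for Cd48 was lost when only the 6 KO libraries were fitted (adjusted p 0.0965) and without ERT2 KO replicate 1 or 3 or Cre-ERT2 KO replicate 1 or 2 (adjusted p 0.0716 to 0.113). None of the 6 Schlafen genes was called by limma, and none had an exact permutation p under 0.2. Slfn2 measured 10.05, 9.88 and 9.86 against 9.88, 9.91 and 9.76, a difference of -0.085 with a 95% interval from -0.19 to 0.020 (limma adjusted p 0.305). Cd244 rose by 1.04 (SE 0.041, limma adjusted p 4.11e-09), or 2.06-fold, from 8.72, 8.73 and 8.86 to 9.85, 9.76 and 9.82. Slamf1 rose by 0.34 (limma adjusted p 5.79e-05) and Cd84 by 0.13 (limma adjusted p 0.00695).

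The interaction tested whether the β-catenin effect differed between KO and WT cells, which was called for 4.53% of all genes. For Slamf7 the effects were 0.63 in both, and the 95% interval of the difference ran from -0.16 to 0.16 (limma adjusted p 0.999). For Slfn2 the fall was smaller in KO cells by 0.21 (95% interval 0.060 to 0.36), which was not called after adjustment (limma adjusted p 0.122) but was called without ERT2 KO replicate 1 (0.27, adjusted p 0.0168) or without Cre-ERT2 KO replicate 3 (0.25, adjusted p 0.0418). Slamf6 differed by -0.11 (95% interval -0.23 to 0.00066, limma adjusted p 0.292). Of the 10 chosen genes only Ly9 was called, by -0.13 (SE 0.033, limma adjusted p 0.0398), against 1.82% of all genes called in that direction, and it lost the call in 10 of the 12 fits that left out 1 library (adjusted p 0.0544 up to 0.1). Outside the set, 3 of 5 members were called, all with a more positive effect in KO cells, against 2.71% of all genes. The effect on Cd244 was the larger one in KO, by 0.64 (SE 0.058, limma adjusted p 3.80e-05), that on Slamf1 by 0.35 (SE 0.052, limma adjusted p 0.00201) and that on Cd84 by 0.30 (SE 0.038, limma adjusted p 0.000642). Cd84 was called in both backgrounds in opposite directions, with 9.52, 9.50 and 9.56 falling to 9.38, 9.35 and 9.35 in WT and 10.18, 10.14 and 10.16 rising to 10.30, 10.25 and 10.32 in KO libraries.

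**Figure D5:**
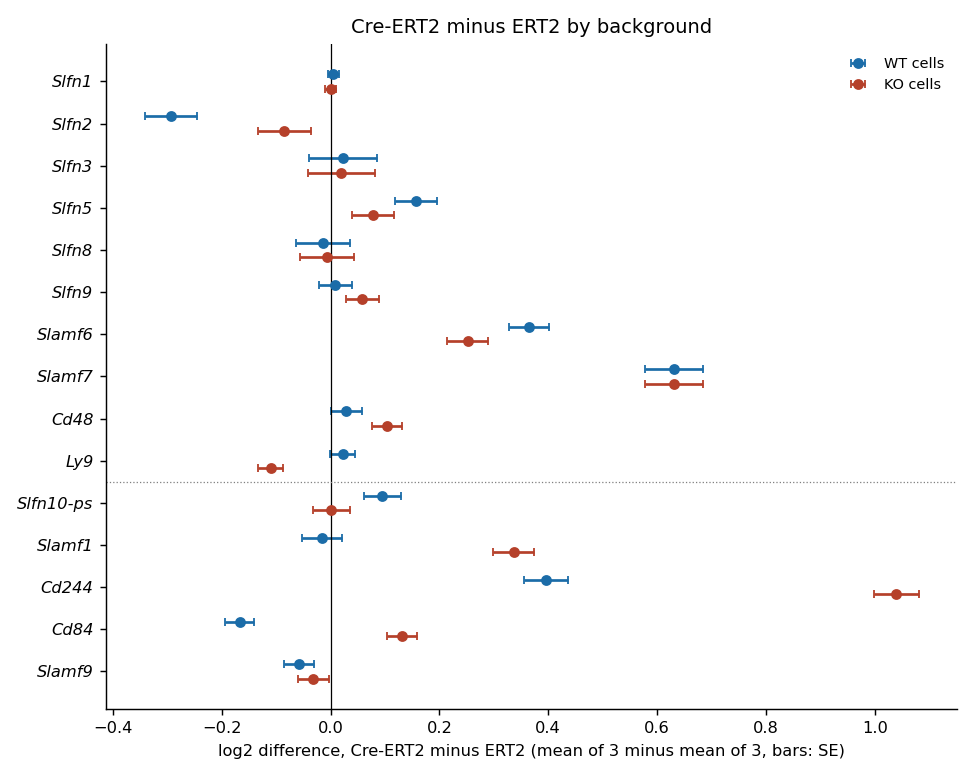
Difference of the means of 3 Cre-ERT2 and 3 ERT2 libraries on the log2 scale (horizontal axis) for each gene in WT and in KO cells, with bars for the SE of the linear model. The Slamf7 points coincide at 0.63, the Cd244 points lie at 0.40 and 1.04, and the Cd84 points stand on opposite sides of 0.

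Further lists were taken from general knowledge of the pathways, but were chosen with earlier results of these data known. Among 16 genes of SLAM adaptors and signaling, 13 had a row, and the adaptors themselves, Sh2d1a (SAP), Sh2d1b1 and Sh2d1b2, did not. In ERT2 KO cells 5 of the 13 rose and 6 fell (median -0.089), where 59.0% of all genes were called. Prkcq, a protein kinase C of lymphocyte receptor signaling, fell by 0.95 (limma adjusted p 1.35e-09), the ubiquitin ligase Cbl by 0.59 (adjusted p 0.00181) and the inhibitory lipid phosphatase Inpp5d (SHIP1) by 0.31 (adjusted p 2.58e-06). Upon stabilization of β-catenin, Prkcq and Plcg2, the phospholipase C of B cells, rose by 0.33 and 0.31 in WT (limma adjusted p 0.000364 and 2.32e-06) and by 0.51 and 0.43 in KO cells (adjusted p 7.37e-06 and 6.14e-08). That list held 6 called genes in WT cells, 3 up and 3 down, and 6 in KO cells, 4 up and 2 down, against 11.9% and 12.6% of all genes. Prkcq thus was lower in KO and higher with β-catenin, as Slamf7 was.

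Of 26 type I interferon response genes 22 had a row, and 5 rose and 13 fell in ERT2 KO cells (median -0.089), against 29.8% and 29.3% of all genes (23.6% and 39.1% after median centering). Ifih1 (MDA5), a sensor of double-stranded RNA, rose by 1.01 (limma adjusted p 4.44e-09) and the antiviral Bst2 by 0.54 (adjusted p 4.42e-09). With β-catenin 2 of the 22 were called in WT cells (11.9% of all genes), namely Irf1 (0.22, limma adjusted p 0.00118) and Parp14 (0.14, adjusted p 0.00138). In KO cells 3 were called, all higher, against 12.6% of all genes. They were Stat2 (0.18, limma adjusted p 0.0011), Irf9 (0.10, adjusted p 0.0489) and Oasl2 (0.078, adjusted p 0.03). With 1 library left out, the number called in KO cells ran from 1 to 3. All 15 genes of lymphocyte quiescence had a row. In ERT2 KO cells 11 fell and 3 rose (median -0.12), against 29.3% and 29.8% of all genes (39.1% and 23.6% after median centering). Those that fell included the antiproliferative Btg2 (-1.55, limma adjusted p 1.08e-11) and the chemokine receptor Ccr7 (-1.24, adjusted p 1.91e-11). Of the tRNA cleavage and stress list 6 genes had a row. Rnh1, the inhibitor of the ribonucleases that cut tRNA, fell by 0.39 (limma adjusted p 1.46e-05) in ERT2 KO cells and Nsun2, a tRNA methyltransferase, rose by 0.29 (adjusted p 3.84e-07), with 2 called up and 2 down, where 59.0% of all genes were called. In WT cells β-catenin lowered 3 of the 6, Nsun2 by 0.21 (limma adjusted p 0.000119) among them, against 5.95% of all genes.

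Profiles over the 12 libraries were compared by Pearson's r, as a description, since the points share 4 groups. Among 435 genes outside the set that ranged over at least 1 log2 unit, the 5 most like Slfn2 were Blk, a B cell Src family kinase (0.999), Pld4, Fcrl6, Cotl1 and Sorcs2 (0.998 each), and 51 genes reached 0.99. Blk averaged 10.98 in ERT2 WT, 10.69 in Cre-ERT2 WT, 7.17 in ERT2 KO and 7.09 in Cre-ERT2 KO libraries. The 5 most like Slamf7 were Aldh1b1 (0.998), Epsti1 (0.998), the adhesion molecule Pecam1 (0.996), Arid5a (0.995) and Marcksl1 (0.994), and 12 genes reached 0.99. Within the set, where no limit on the range was applied, Slfn2 was most like Cd48 (0.984) and Slamf7 most like Slamf6 (0.987). The r of Slfn9 was negative with both Slfn2 and Slamf7 (-0.74 and -0.62), but Slfn9 ranged over only 0.19 log2 units.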

How the data were processed

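Libraries were made with a stranded mRNA kit. According to the study and the processing notes, reads were quantified with Salmon 1.4.0, aligned with STAR 2.7.6 to mm10/GRCm38 and analyzed with DESeq2 1.30.1. The deposited table gives log2 values of gene expression, which the authors had normalized for differences between libraries by a transformation that is not stated. If it compresses low values, changes of genes such as Slfn1 are understated. Values were used as deposited. The 12 libraries entered 1 linear model of 4 group means, in limma 3.58.1 under R 4.3.3 (eBayes, mean-dependent prior, 8 residual degrees of freedom), with Benjamini-Hochberg adjustment over 12151 genes in each of 5 contrasts and calls at an adjusted p under 0.05. The code was tested on simulated data. Single genes were also compared by exact 2-sided permutation tests. Genes were named by rule: all family members with a value, the 3 largest called changes of each further list or of neighbors, and the 5 most similar profiles. Some genes that the rule names are not reported here. Members and lists were chosen with earlier results of these data known. GENCODE vM21 gave positions for 12111 genes. Alternatives were 10 settings and leaving out each of 12 libraries.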

Additional observations from a re-analysis of the deposited data

Results flagged for a closer look

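With 3 libraries per group, single outlying values were not sought. A test of the interaction found a β-catenin effect that differed between KO and WT cells for 4 of the 15 family genes, Cd244 (0.64 more in KO), Slamf1 (0.35 more), Cd84 (0.30 more, from a fall to a rise) and Ly9 (-0.13). Cd244, Slamf1 and Cd84 kept the call under every alternative setting run and in all 12 fits without 1 library, and Ly9 lost it in most of the latter. Ly9 and Cd244 occupy opposite strands of the same stretch, and their differences had opposite signs.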

How the results depend on the processing

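No called change of the 15 genes turned its direction under any alternative run. The number of chosen genes called stayed within 1.5 times in every comparison but the interaction, where 1 gene became 0 at an adjusted p under 0.01 and 0 with the replicate number as a block, and 0 to 2 with 1 library left out (Ly9 lost, Slfn2 gained). The fit to the 6 libraries of a contrast was not run for the interaction, which uses all 12. Replicate numbers are shared between groups, and whether they pair the samples is not known. Same-numbered deviations correlated from -0.068 to 0.31, above 0.1 in 2 of 12 pairs, and 6 of 12 were best with their own number. Between ERT2 KO and Cre-ERT2 KO libraries the correlations were 0.095, 0.13 and 0.077, each the best with its own number. The main model assumed no pairing. With the replicate block, Ly9 (interaction, adjusted p 0.0685) and Cd48 (KO cells, adjusted p 0.0510) were not called. Slfn10-ps gained a call in WT cells without ERT2 WT replicate 2 (0.13, adjusted p 0.0376). At an adjusted p under 0.01, Slfn5 in WT cells, Cd48 in KO cells, Ly9 in the interaction and Slamf1 (KO against WT, ERT2 libraries) lost their calls. Signs turned only for values near 0 that were never called. Median centering gave -0.00068 for Slfn1 in WT and -0.0062 for Slfn10-ps in KO cells, and quantile normalization -0.018 for Slfn10-ps in KO cells and 0.023 for the Slamf7 interaction. With 1 library left out, the β-catenin effect in WT cells ran from -0.0046 to 0.015 for Slfn1, -0.022 to 0.099 for Slfn3, -0.039 to 0.018 for Slfn8, -0.021 to 0.027 for Slfn9 and -0.036 to 0.022 for Slamf1. In KO cells it ran from -0.022 to 0.067 for Slfn3, -0.070 to 0.026 for Slfn8 and -0.014 to 0.026 for Slfn10-ps. The interaction ran from -0.015 to 0.0045 for Slfn1, -0.079 to 0.044 for Slfn3, -0.055 to 0.040 for Slfn8 and -0.078 to 0.046 for Slamf7. The cause of these shifts was not tested. Depth is unknown, so the noise of low values such as Slfn1 cannot be judged from counts.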
